A study of Homo sapiens with 40 samples.

Results

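LCP1, SLC7A2, AFF2, EPPK1, VPS9D1-AS1 and MARK1 are 6 of the 60664 genes in the count table, and they were chosen because they were far higher in untreated SETD2 knockout cells than in untreated SETD2 wild-type cells at day 0. The choice had no numeric threshold, and it used the 4 untreated libraries, so every difference of these genes between the lines at day 0, or between a drug and day 0, is given here as a description with no test. The samples are 786-0 cells, grown from a clear cell carcinoma of the kidney, in 2 forms that the labels call SETD2 KO (KO) and SETD2 WT (WT). In each, groups of 2 libraries were made from untreated control cells at day 0 and, at days 5, 16 and 26, from cells given 100 nM DAC together with 10 nM BMN (the combination), 100 nM DAC alone or 10 nM BMN alone. That makes 20 groups and 40 libraries of total RNA. Each form is a single line, no untreated cells were measured after day 0, and the labels do not say whether the libraries of a group came from separate cultures. Drug and time in culture therefore cannot be told apart against day 0, and p-values measure the spread between libraries, which may be technical.

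SETD2 is the enzyme that trimethylates a lysine in the tail of histone H3 along the bodies of transcribed genes, a mark that is read by de novo DNA methyltransferases and by repair proteins, and it is one of the genes most often mutated in clear cell renal carcinoma. DAC (decitabine) is built into replicating DNA and traps DNA methyltransferases, so that methylation of CG pairs is lost as cells divide, and BMN (BMN673, talazoparib) blocks and traps PARP enzymes on DNA. The 6 genes share no pathway. LCP1 encodes L-plastin, a protein that bundles actin filaments and is normally made by leukocytes. EPPK1 encodes epiplakin, a plakin that binds keratin filaments in epithelia. MARK1 encodes a kinase that phosphorylates microtubule-associated proteins such as tau. SLC7A2 encodes a plasma membrane carrier of arginine, lysine and ornithine. AFF2 encodes a nuclear protein related to scaffolds of transcription elongation complexes, and VPS9D1-AS1 is a noncoding RNA read from the strand opposite VPS9D1. The question put to the data was whether the drugs brought these genes up in WT cells, or down in KO cells.

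Libraries held between 17833960 and 22631101 counts assigned to genes, so that 3 counts, the limit that a count of 0 allows, stood for 0.133 to 0.171 CPM (counts scaled to a common library size by the trimmed mean of M-values). This floor covers counting error only. SETD2 itself had 141 and 113 CPM in untreated KO cells, against 149 and 130 CPM in untreated WT cells. Those values overlap, and a count over the whole gene does not check a small edit. The kidney lineage factor PAX8 ran from 264 to 481 CPM in KO libraries and from 210 to 479 CPM in WT libraries. All 6 members passed the filter on low counts, with 22527 genes tested, but MARK1 passed through its KO libraries alone, because no WT library held more than 7 of its counts.

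RefSeq promoter windows of GRCh38.p14, running from 250 bases before to 50 bases after a start site, were at hand for 3 of the 6 members. The windows of LCP1 and VPS9D1-AS1 are shown because DAC acts on methylated CG pairs and these 2 lie far apart in how many they hold. Each is printed 5′ to 3′ on the strand of its gene, and capitals mark CG pairs.
LCP1 at chr13:46182128-46182427, minus strand: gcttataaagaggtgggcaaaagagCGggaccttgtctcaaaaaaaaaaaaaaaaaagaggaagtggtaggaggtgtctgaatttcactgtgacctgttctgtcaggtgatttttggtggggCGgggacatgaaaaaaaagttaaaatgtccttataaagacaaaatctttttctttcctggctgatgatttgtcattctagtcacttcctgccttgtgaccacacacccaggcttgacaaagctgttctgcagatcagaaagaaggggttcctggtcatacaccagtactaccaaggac
VPS9D1-AS1 at chr16:89711606-89711905, plus strand: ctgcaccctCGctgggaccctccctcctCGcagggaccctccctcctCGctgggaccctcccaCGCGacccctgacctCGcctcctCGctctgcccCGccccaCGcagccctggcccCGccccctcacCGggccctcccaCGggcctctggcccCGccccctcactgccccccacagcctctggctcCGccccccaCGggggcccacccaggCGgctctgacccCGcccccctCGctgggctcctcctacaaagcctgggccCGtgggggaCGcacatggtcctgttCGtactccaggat
The LCP1 window held 2 CG pairs, a number that 89.0% of the 35116 promoters in the table reached, and the VPS9D1-AS1 window held 21, which 39.5% reached. The median promoter held 14. The LCP1 window lies 29444 bases inside the span of the gene and covers 2 of 7 annotated starts. The AFF2 window held 1 CG pair, and it lies 218224 bases inside the gene's span and covers 1 of 5 annotated starts. CG counts on a strand and its complement are equal, and no methylation was measured here.

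**Figure D1:**
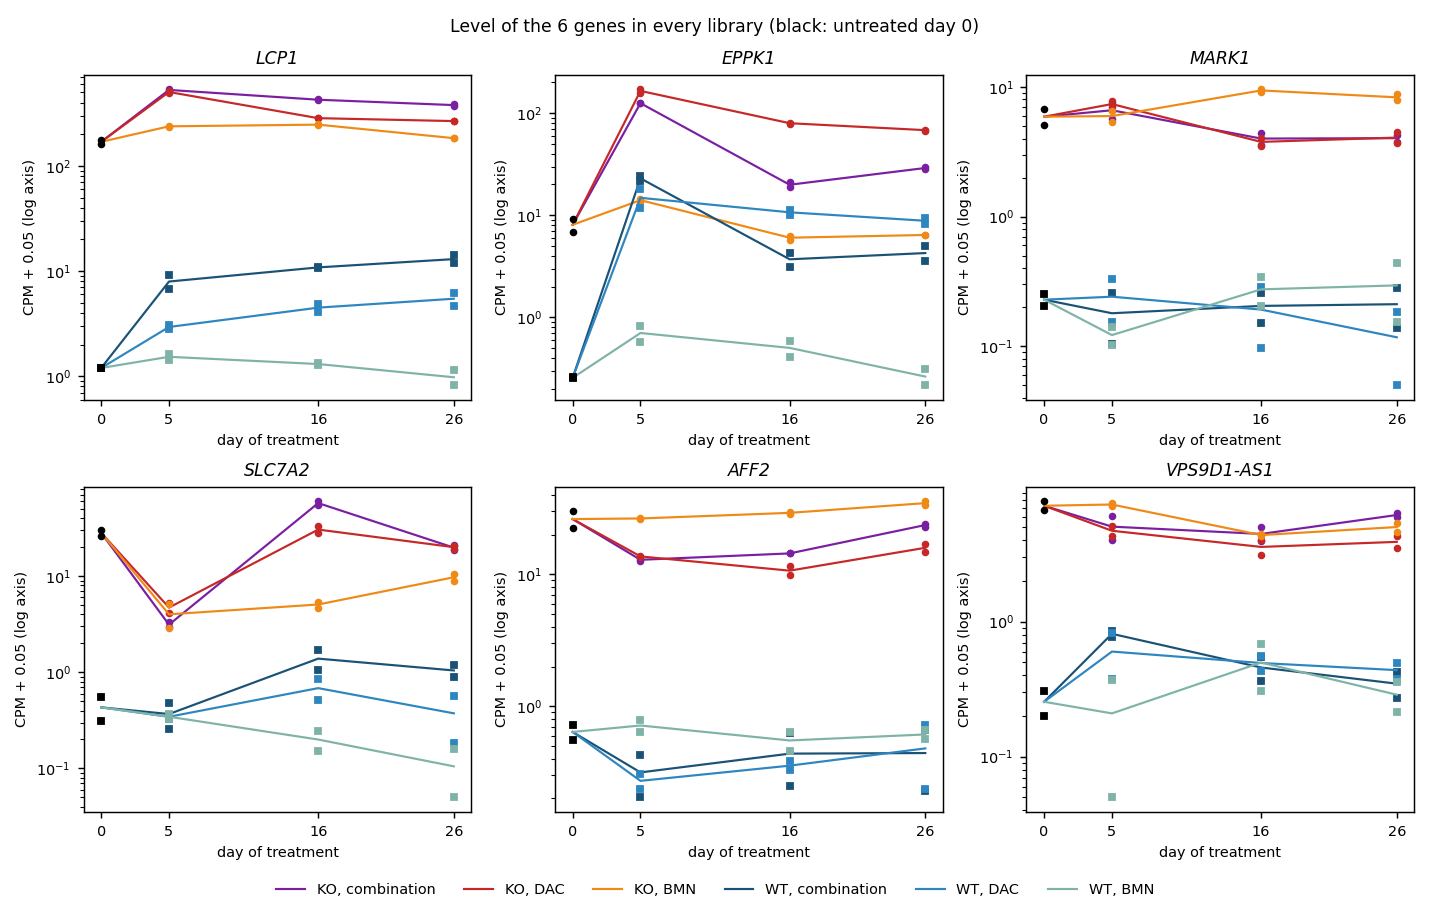
Level of each gene in every library, in CPM plus 0.05 on a log axis, against the day of treatment (0, 5, 16 and 26). Circles are KO libraries, squares are WT libraries, lines join group means and black marks are untreated cells. The KO and WT points meet for EPPK1 only.

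At day 0 the 6 genes were expressed in KO cells and at or near the counting floor in WT cells, other than LCP1, which had a low level in WT. LCP1 (ENSG00000136167, chr13:46125920-46211871, minus strand) had 178 and 161 CPM in KO cells, against 1.16 and 1.14 CPM in WT cells. SLC7A2 (ENSG00000003989, chr8:17497088-17570573, plus strand) had 26.4 and 30.0 CPM in KO cells, against 0.504 and 0.259 CPM in WT cells. AFF2 (ENSG00000155966, chrX:148500617-149000663, plus strand) had 30.0 and 22.3 CPM in KO cells, against 0.504 and 0.673 CPM in WT cells. The other 3 genes were lower in KO cells as well. EPPK1 (ENSG00000261150, chr8:143857324-143878467, minus strand) had 6.85 and 9.15 CPM in KO cells, against 0.202 and 0.207 CPM in WT cells. VPS9D1-AS1 (ENSG00000261373, chr16:89711856-89718165, plus strand) had 7.72 and 6.61 CPM in KO cells, against 0.151 and 0.259 CPM in WT cells. MARK1 (ENSG00000116141, chr1:220528136-220664461, plus strand) had 5.02 and 6.67 CPM in KO cells, against 0.202 and 0.155 CPM in WT cells. The fitted log2 differences between KO and WT were 7.20, 6.18, 5.46, 5.25, 5.09 and 4.98 in that order. These differences chose the genes. Over all genes tested, 13.4% were higher and 13.9% lower in KO cells at day 0. Per kilobase of annotated exon, the untreated KO level of LCP1 was 33.4 ± 2.37 CPM (SD, n = 2). VPS9D1-AS1 at 4.09 ± 0.446 and SLC7A2 at 3.57 ± 0.321 CPM per kilobase came next, with overlapping libraries. AFF2 followed at 1.84 ± 0.382 CPM per kilobase, and EPPK1 at 0.500 ± 0.101 and MARK1 at 0.383 ± 0.0764 CPM per kilobase overlapped at the low end.

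LCP1 is a leukocyte gene, so markers of blood cells were read beside it. Among 12 leukocyte markers, PTPRC, CD3E, MS4A1, LYZ and SPI1 were at 0 in both untreated KO libraries. The summed level of the 12 was 3.08 to 3.64 CPM in untreated KO cells and 2.12 to 2.90 CPM in untreated WT cells. In treated cells the sum ran from 2.48 to 163 CPM in KO libraries and from 2.37 to 78.2 CPM in WT libraries, and the highest single marker was LAPTM5, which reached 113 CPM in KO libraries and 47.7 CPM in WT libraries. Of the 6 markers tested, 3 were higher under DAC than under BMN in KO cells and 5 in WT cells, beside 28.5% and 23.3% of all genes tested, and their part in the LCP1 values was not tested. HCLS1 reached 27.5 CPM in KO and 14.6 CPM in WT libraries, CORO1A 13.6 and 7.26 CPM, and ITGB2 7.75 and 7.26 CPM. PTPRC, the common leukocyte antigen, did not pass 0.279 CPM in any library, and MS4A1 was at 0 in every library. In bulk RNA, fewer cells of a type and less RNA per cell cannot be told apart.

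The gap between the lines held under each treatment, in libraries that the choice of genes did not use. LCP1, SLC7A2, AFF2, EPPK1 and VPS9D1-AS1, the 5 members other than MARK1, were higher in KO than in WT cells under the combination, where 23.8% of all genes tested were higher, under DAC, where 23.4% were, and under BMN, where 21.3% were (edgeR's quasi-likelihood test, means of days 5, 16 and 26, largest adjusted p 2.7e-14). The size of the gap differed between genes and treatments. For LCP1 the log2 difference between KO and WT was 5.41 ± 0.06 under the combination, 6.36 ± 0.06 under DAC and 7.51 ± 0.07 under BMN (± SE, 6 libraries a side). For EPPK1 it was 2.56 ± 0.09 under the combination, 3.12 ± 0.08 under DAC and 4.32 ± 0.17 under BMN. For AFF2 it was 5.56 ± 0.16, 5.39 ± 0.17 and 5.69 ± 0.14 under the same treatments. The values of SLC7A2 were 4.33 ± 0.17, 5.16 ± 0.18 and 5.36 ± 0.25, and those of VPS9D1-AS1 3.48 ± 0.21, 3.12 ± 0.21 and 4.32 ± 0.23. No alternative setting tried ended any of these calls. MARK1 entered the fit through its KO libraries alone, so its values of 4.93 ± 0.25, 5.20 ± 0.26 and 5.54 ± 0.23 are given as a description with no test.

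**Figure D2:**
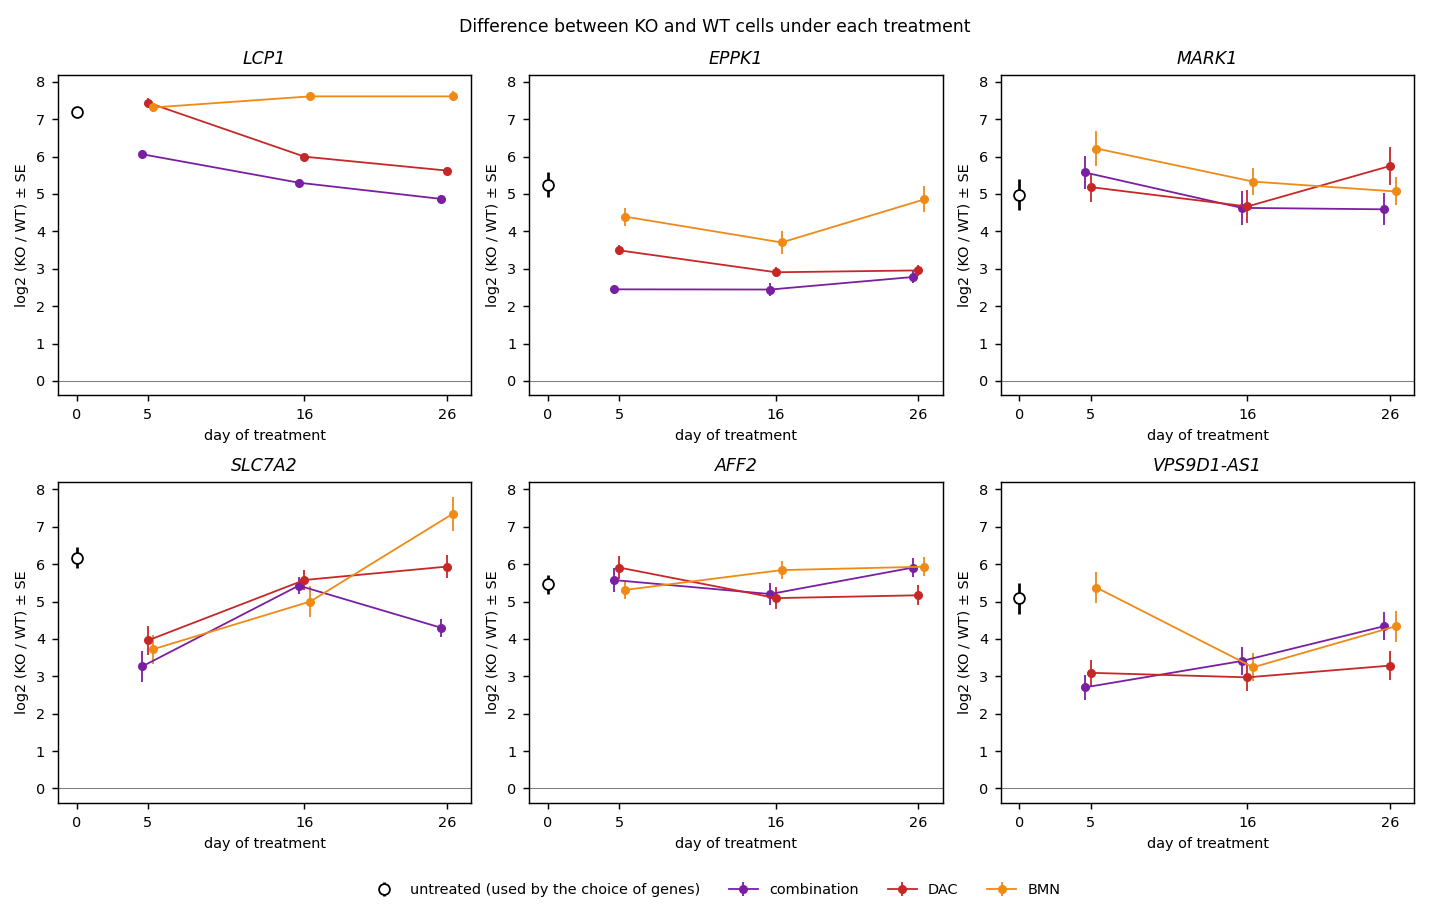
Log2 difference in level between KO and WT cells (y axis, ± SE) by day (x axis) under each treatment, with the untreated day 0 value that was used to choose the genes drawn open. The LCP1 and EPPK1 gaps under the combination lie below those under BMN on each day, and no value reaches 0.

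The cytoskeletal genes LCP1 and EPPK1 were higher under DAC, with or without BMN, than under BMN alone in both lines. In WT cells LCP1 had 9.14 and 6.68, 10.8 and 10.8, and 11.9 and 14.1 CPM at days 5, 16 and 26 of the combination. DAC alone gave 3.0 and 2.79, 4.81 and 4.08, and 6.17 and 4.66 CPM on the same days, and under BMN alone 1.37 and 1.59, 1.23 and 1.29, and 0.772 and 1.09 CPM. Combination libraries lay above DAC libraries and DAC libraries above BMN libraries on every day. Averaged over days, LCP1 in WT cells was higher under the combination than under BMN by 3.10 ± 0.10 on the log2 scale (adjusted p = 3.8e-24), and higher under DAC than under BMN by 1.77 ± 0.11 (adjusted p = 4.5e-15). The highest WT group, the combination at day 26, still had only 7.64% of the untreated KO level.

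In KO cells, where LCP1 was already abundant, it had 521 and 535, 423 and 429, and 387 and 371 CPM at days 5, 16 and 26 of the combination. DAC alone gave 513 and 497, 287 and 283, and 268 and 266 CPM, and under BMN alone 236 and 240, 245 and 249, and 185 and 183 CPM. No treated KO group had a lower mean than untreated KO cells, and the highest, the combination at day 5, had 312% of their level. The averaged log2 difference was 0.99 ± 0.04 between the combination and BMN (adjusted p = 1.4e-19) and 0.61 ± 0.04 between DAC and BMN (adjusted p = 6.3e-14). The difference between the combination and BMN was smaller in KO than in WT cells, with a KO minus WT value of -2.10 ± 0.11 on the log2 scale (adjusted p = 2.1e-16), and so was that between DAC and BMN, at -1.16 ± 0.12 (adjusted p = 1e-08). Comparisons of the combination and of DAC with BMN share the BMN libraries.

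EPPK1 was the gene whose WT level came up to that of untreated KO cells. In WT cells it had 21.8 and 24.0, 4.23 and 3.06, and 3.50 and 4.91 CPM at days 5, 16 and 26 of the combination. Under DAC alone it had 17.8 and 11.7, 11.2 and 10.002, and 8.13 and 9.41 CPM, against 0.527 and 0.773, 0.541 and 0.360, and 0.165 and 0.258 CPM under BMN alone. The WT groups under DAC stood at 184%, 133% and 110% of the untreated KO level at days 5, 16 and 26, and those under the combination at 286%, 45.6% and 52.6%. Described against untreated WT cells, with 4 counts in each library, the log2 difference at day 5 was 6.77 ± 0.28 under the combination and 6.12 ± 0.30 under DAC. The averaged difference in WT cells was 4.12 ± 0.18 between the combination and BMN (adjusted p = 4.3e-20) and 4.77 ± 0.16 between DAC and BMN (adjusted p = 4.5e-23).

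KO cells under DAC had still more EPPK1. They had 126 and 125, 18.8 and 20.9, and 29.4 and 28.5 CPM at days 5, 16 and 26 of the combination. Under DAC alone the values were 171 and 159, 78.4 and 81.0, and 67.3 and 68.9 CPM, and under BMN alone 13.5 and 14.5, 6.23 and 5.71, and 6.30 and 6.40 CPM. Every combination and DAC library lay above every BMN library. The averaged log2 difference was 2.36 ± 0.08 between the combination and BMN (adjusted p = 3.5e-22) and 3.57 ± 0.08 between DAC and BMN (adjusted p = 1e-27). Both were smaller than in WT cells, with KO minus WT values of -1.76 ± 0.23 for the combination (adjusted p = 3.2e-07) and -1.20 ± 0.23 for DAC (adjusted p = 0.00019). EPPK1 holds near-identical plakin repeats, and the minimum mapping quality of 20 leaves out reads that could fall in several of them, so its level may be understated.

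MARK1, the third cytoskeletal gene, stayed between 0 and 0.386 CPM in all 20 WT libraries. Its WT group means never passed 4.19% of the untreated KO level, and at these counts no difference between drugs was detectable in WT cells. The interval of the log2 difference between DAC and BMN there ran from -1.43 to 0.74. In KO cells MARK1 had 5.64 and 7.48, 4.36 and 3.53, and 4.23 and 3.72 CPM at days 5, 16 and 26 of the combination. Under DAC alone it had 6.92 and 7.73, 3.46 and 3.98, and 4.42 and 3.61 CPM, against 6.50 and 5.32, 9.16 and 9.53, and 8.71 and 7.81 CPM under BMN alone. At days 16 and 26 all combination and DAC libraries lay below all BMN libraries. Against the untreated KO level, BMN groups stood at 101%, 160% and 141% at days 5, 16 and 26. DAC groups stood at 125%, 63.6% and 68.8%, and combination groups at 112%, 67.5% and 68.0%. The differences from BMN thus include BMN values above the untreated level. Averaged over days MARK1 was lower than under BMN by a log2 value of -0.72 ± 0.14 under the combination (adjusted p = 4.5e-05) and -0.69 ± 0.14 under DAC (adjusted p = 6.2e-05). At day 5 of DAC alone, where 28.8% of all genes tested differed from BMN, it did not pass (log2 0.31 ± 0.23, adjusted p = 0.35). At day 16, where 39.2% differed, its log2 value was -1.33 ± 0.24 (adjusted p = 2.4e-05).

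SLC7A2, the arginine carrier gene, was low in KO cells at day 5 of every treatment and differed between treatments later. Under the combination KO cells had 3.26 and 2.90, 55.2 and 59.9, and 20.9 and 18.7 CPM at days 5, 16 and 26. Under DAC alone they had 5.22 and 4.11, 32.9 and 28.1, and 20.6 and 19.3 CPM, and under BMN alone 5.05 and 2.87, 5.38 and 4.67, and 10.5 and 8.87 CPM. All 6 day 5 libraries lay far below both untreated KO libraries, with group means of 10.9% to 16.5% of the untreated level, whichever drug was given. Described against day 0, the log2 difference at day 5 was -3.19 ± 0.21 under the combination, -2.60 ± 0.20 under DAC and -2.83 ± 0.20 under BMN. By day 16 the combination stood at 204% of the untreated level, while BMN stayed low. Between DAC and BMN the day 5 difference in KO cells did not pass (log2 0.23 ± 0.23, adjusted p = 0.51), while the day 16 difference was 2.60 ± 0.19 (adjusted p = 2.6e-13). Averaged over days it was 1.39 ± 0.12 between the combination and BMN (adjusted p = 1.5e-11) and 1.29 ± 0.12 between DAC and BMN (adjusted p = 2.5e-11).

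In WT cells SLC7A2 had 0.430 and 0.205, 1.67 and 1.00, and 0.841 and 1.15 CPM at days 5, 16 and 26 of the combination. Under DAC alone it had 0.310 and 0.279, 0.463 and 0.806, and 0.514 and 0.134 CPM, and under BMN alone 0.316 and 0.273, 0.197 and 0.103, and 0.110 and 0 CPM. These values rest on 0 to 32 counts a library, and the highest group had 4.75% of the untreated KO level. Described against untreated WT cells, the log2 difference under DAC was -0.38 ± 0.64, 0.71 ± 0.53 and -0.25 ± 0.61 at days 5, 16 and 26, with overlapping libraries each day. Under BMN it was -0.38 ± 0.64, -1.31 ± 0.74 and -2.71 ± 0.95, and under the combination -0.28 ± 0.64, 1.78 ± 0.46 and 1.37 ± 0.48. The differences from BMN below therefore include lower BMN values. SLC7A2 was higher in WT cells under the combination than under BMN by 2.42 ± 0.42 (adjusted p = 7.7e-06) and under DAC than under BMN by 1.49 ± 0.46 (adjusted p = 0.0081). Without replicate 1 of WT cells at day 26 of DAC the second value was 1.09 and did not pass (adjusted p = 0.107), and without replicate 1 of WT cells at day 26 of BMN, which leaves a library with 0 counts, it was 2.57 and passed.

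AFF2 was the member that DAC-treated KO cells expressed least in comparison with BMN-treated KO cells. It had 12.6 and 13.1, 14.3 and 14.3, and 24.2 and 22.9 CPM at days 5, 16 and 26 of the combination. DAC alone gave 13.7 and 13.5, 11.4 and 9.80, and 14.6 and 17.1 CPM, and under BMN alone 26.8 and 26.1, 28.5 and 29.8, and 35.6 and 33.5 CPM. BMN libraries lay above combination and DAC libraries on every day. Against the untreated KO level, DAC groups stood at 52.0%, 40.5% and 60.5% at days 5, 16 and 26. Combination groups stood at 49.0%, 54.8% and 90.1%, and the libraries of the last overlapped the untreated ones. BMN groups stood at 101%, 111% and 132%, so the differences from BMN include a BMN value above the untreated level at day 26. The averaged log2 difference was -0.87 ± 0.09 between the combination and BMN (adjusted p = 4.6e-10) and -1.18 ± 0.09 between DAC and BMN (adjusted p = 3.6e-13).

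WT cells had 3 to 15 AFF2 counts a library under every treatment, or 0.154 to 0.738 CPM. The log2 value there was -0.74 ± 0.30 between the combination and BMN (adjusted p = 0.041) and -0.88 ± 0.31 between DAC and BMN (adjusted p = 0.02), and neither call was firm. The first missed the threshold with size factors from DESeq2 (adjusted p = 0.0515), in a fit of the compared libraries alone (adjusted p = 0.124), and without replicate 1 of BMN at day 5, 16 or 26 or replicate 2 of the combination at day 5, 16 or 26, with an adjusted p of at most 0.143. The second missed it in a fit of the compared libraries alone (adjusted p = 0.0563) and without replicate 1 of BMN at day 16 (log2 -0.78, adjusted p = 0.0761), replicate 1 of DAC at day 26 (log2 -0.67, adjusted p = 0.0613) or replicate 2 of DAC at day 5 (log2 -0.80, adjusted p = 0.0601).

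VPS9D1-AS1, the noncoding RNA, had the narrowest range of group means of the 6 genes in KO cells. It had 3.98 and 6.02, 3.87 and 4.95, and 5.90 and 6.32 CPM at days 5, 16 and 26 of the combination. Under DAC alone it had 5.05 and 4.27, 3.07 and 3.98, and 3.45 and 4.25 CPM, against 7.18 and 7.46, 4.23 and 4.42, and 5.35 and 4.59 CPM under BMN alone. The DAC libraries lay below the BMN libraries on each day. Against the untreated KO level, DAC groups stood at 65.0%, 49.2% and 53.7% at days 5, 16 and 26. Combination groups stood at 69.8%, 61.6% and 85.3%, and BMN groups at 102%, 60.4% and 69.4%. The differences from BMN at days 16 and 26 thus include BMN values below the untreated level. The averaged log2 value was -0.44 ± 0.15 between DAC and BMN (adjusted p = 0.014), which became -0.38 without replicate 1 of KO cells at day 16 of DAC and did not pass (adjusted p = 0.0511). Between the combination and BMN it was -0.08 ± 0.15 (adjusted p = 0.72), with an interval from -0.37 to 0.22.

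In WT cells VPS9D1-AS1 gave 58 counts in all over the 6 combination libraries, 58 over the 6 DAC libraries, 34 over the 6 BMN libraries and 8 over the 2 untreated libraries. Its highest WT group, the combination at day 5, had 10.6% of the untreated KO level. The log2 value was 0.76 ± 0.36 both between the combination and BMN (adjusted p = 0.081) and between DAC and BMN (adjusted p = 0.084), and neither passed. The second became 1.03 without replicate 1 of BMN at day 16 (adjusted p = 0.0334), 2.36 without replicate 2 of BMN at day 5 (adjusted p = 0.0027) and 0.94 without replicate 2 of DAC at day 5 (adjusted p = 0.0352). The library that remains at day 5 of BMN in the second of these had 0 counts. The first became 1.02 (adjusted p = 0.031) and 2.36 (adjusted p = 0.00234) without the same BMN libraries, and 0.81 by DESeq2 (adjusted p = 0.0486). The KO minus WT value of the difference between DAC and BMN was -1.20 ± 0.39 (adjusted p = 0.021). That call was lost without replicate 1 of WT BMN at day 5 or 26, replicate 2 of WT BMN at day 16, replicate 1 of WT DAC at day 5 or 16, or replicate 2 of WT DAC at day 26, with adjusted p values of 0.0511 to 0.0994 and log2 values of -0.91 to -1.13. Without replicate 2 of WT BMN at day 5 the value was -2.80 and passed.

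**Figure D3:**
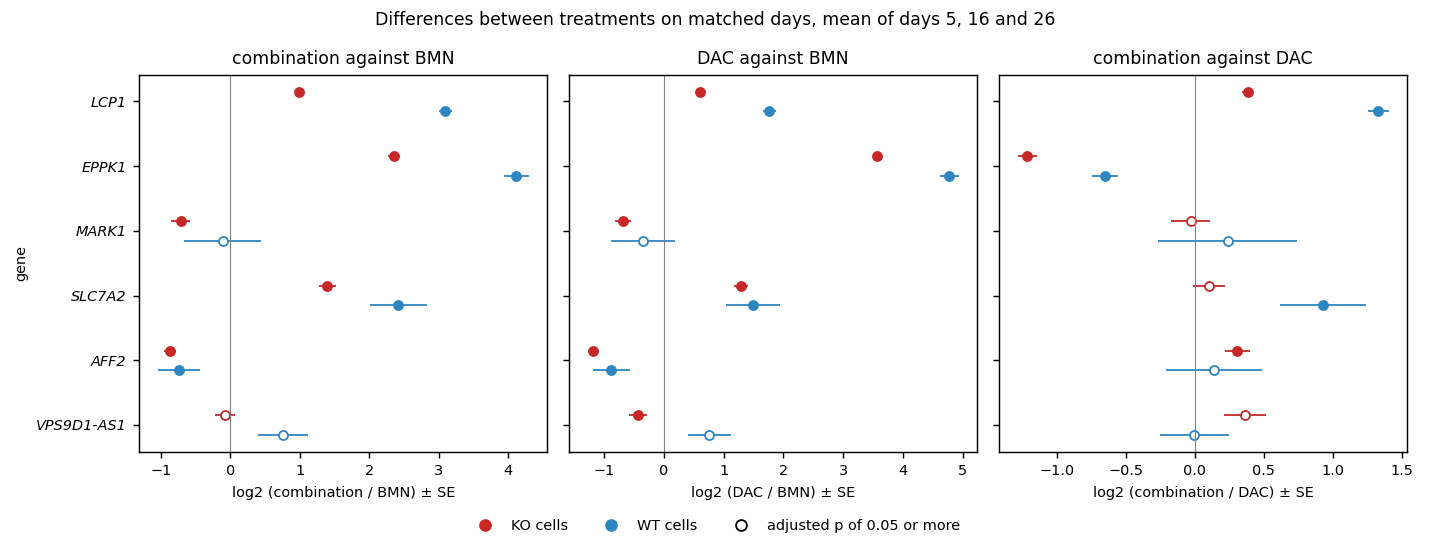
Averaged log2 differences (x axis, ± SE) between the combination and BMN, DAC and BMN, and the combination and DAC for each gene, with KO cells in red above WT cells in blue. Open marks did not pass an adjusted p of 0.05, and EPPK1 has the highest values against BMN in both lines.

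By counts of members, DAC against BMN in KO cells gave 3 genes higher (LCP1, SLC7A2 and EPPK1) and 3 lower (AFF2, VPS9D1-AS1 and MARK1), beside 28.5% of all genes tested higher and 23% lower. In WT cells the same comparison gave 3 higher and 1 lower (AFF2), beside 23.3% higher and 19.4% lower, and 2 higher and 0 lower without replicate 1 of WT DAC at day 26. The combination against BMN gave 3 higher and 2 lower in KO cells, beside 26% and 19.2% of all genes, and 3 higher and 1 lower in WT cells, beside 27% and 25.3%. For the difference of response between the lines, 3 members (LCP1, EPPK1 and VPS9D1-AS1) had a lower value in KO cells for DAC against BMN, beside 10.8% of all genes, and 2 (LCP1 and EPPK1) for the combination against BMN, beside 8.91%. In the combination, SLC7A2 at -1.03 ± 0.45 (adjusted p = 0.11) and VPS9D1-AS1 at -0.83 ± 0.39 (adjusted p = 0.14) did not pass. They passed without 1 library each. SLC7A2 was at -2.11 without replicate 1 of WT BMN at day 26 (adjusted p = 0.045), and VPS9D1-AS1 at -2.43 without replicate 2 of WT BMN at day 5 (adjusted p = 0.00661).

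On the averages over days, adding BMN to DAC moved LCP1 and EPPK1 in opposite directions, which did not hold at day 5. LCP1 was higher under the combination than under DAC by 0.38 ± 0.04 in KO cells (adjusted p = 2.2e-08) and by 1.33 ± 0.07 in WT cells (adjusted p = 5.4e-16), averaged over days. EPPK1 had a log2 value of -1.21 ± 0.07 in KO cells (adjusted p = 6.7e-15) and -0.65 ± 0.10 in WT cells (adjusted p = 1.9e-06). AFF2 in KO cells was higher by 0.31 ± 0.09 (adjusted p = 0.015). It did not pass without replicate 2 of KO DAC at day 16 (adjusted p = 0.0593) or replicate 1 of KO DAC at day 26 (adjusted p = 0.0539). SLC7A2 in WT cells was higher by 0.93 ± 0.31 (adjusted p = 0.029). This call was lost in a fit of the compared libraries alone (adjusted p = 0.0687) and without replicate 1 of the combination at day 5 or 16, replicate 2 of the combination at day 26, replicate 2 of DAC at day 5 or 26, or replicate 1 of DAC at day 16, with adjusted p values of 0.0645 to 0.244. The members thus gave 2 higher and 1 lower in each line, beside 10.9% higher and 11.8% lower of all genes in KO cells and 10.2% higher and 12.8% lower in WT cells. The other differences did not pass. Their intervals were -0.13 to 0.33 for SLC7A2 and -0.32 to 0.26 for MARK1 in KO cells, and -0.57 to 0.84 for AFF2, -0.51 to 0.50 for VPS9D1-AS1 and -0.79 to 1.26 for MARK1 in WT cells. VPS9D1-AS1 in KO cells, at 0.36 ± 0.15, missed narrowly (adjusted p = 0.083). It passed in a fit of the compared libraries alone (adjusted p = 0.036) and without replicate 1 of the KO combination at day 5 (log2 0.45, adjusted p = 0.039).

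Single days are given for LCP1, EPPK1 and SLC7A2. Of all genes tested, 22.3%, 16.3% and 23.9% differed between the combination and DAC in KO cells at days 5, 16 and 26, and 12.3%, 12.2% and 12.2% in WT cells. EPPK1 in KO cells was lower under the combination on each day, with log2 values of -0.40 ± 0.11 (adjusted p = 0.01), -2.01 ± 0.13 (adjusted p = 1.9e-13) and -1.23 ± 0.12 (adjusted p = 3.7e-09). In WT cells it was higher at day 5 by 0.64 ± 0.14 (adjusted p = 0.0011), and lower later, at -1.55 ± 0.18 (adjusted p = 4.8e-08) and -1.06 ± 0.17 (adjusted p = 3.2e-05). LCP1 in KO cells had a day 5 value of 0.07 ± 0.07 that did not pass (adjusted p = 0.59) and later values of 0.58 ± 0.07 (adjusted p = 7.1e-07) and 0.51 ± 0.07 (adjusted p = 4.7e-06). SLC7A2 in KO cells passed at day 16 alone, at 0.92 ± 0.16 (adjusted p = 9.4e-05). Its values were -0.59 ± 0.25 at day 5 (adjusted p = 0.082) and -0.02 ± 0.17 at day 26 (adjusted p = 0.97). Differences between the days were not tested for this contrast.

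Over time on the combination or DAC, LCP1 moved one way in KO cells and the other way in WT cells. From day 5 to day 26 its log2 change under the combination was -0.48 ± 0.07 in KO cells (adjusted p = 2.8e-06) and 0.72 ± 0.11 in WT cells (adjusted p = 4.3e-06). Under DAC it was -0.92 ± 0.08 in KO cells (adjusted p = 1.1e-11) and 0.90 ± 0.15 in WT cells (adjusted p = 3.5e-05). Under BMN it was -0.37 ± 0.08 in KO cells (adjusted p = 0.00056), and the WT change of -0.67 did not pass (adjusted p = 0.09). SLC7A2 was higher at day 26 than at day 5 in KO cells under each treatment, by 2.68 ± 0.21 under the combination (adjusted p = 2.8e-12), 2.10 ± 0.20 under DAC (adjusted p = 3.2e-10) and 1.29 ± 0.21 under BMN (adjusted p = 4.6e-05).

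EPPK1 was lower at day 26 than at day 5 in both lines. The log2 change in KO cells was -2.11 ± 0.12 under the combination (adjusted p = 1.9e-15), -1.28 ± 0.12 under DAC (adjusted p = 1.6e-10) and -1.14 ± 0.16 under BMN (adjusted p = 5e-06). In WT cells it was -2.44 ± 0.16 under the combination (adjusted p = 6.2e-14), -0.74 ± 0.15 under DAC (adjusted p = 0.00037) and -1.60 ± 0.57 under BMN (adjusted p = 0.041). The WT change under DAC became -0.41 without replicate 1 at day 5 (adjusted p = 0.0841). The WT change under BMN did not pass without any 1 of its 4 libraries (adjusted p 0.0566 to 0.266), and neither passed in a fit of the compared libraries alone (adjusted p = 0.0527 under DAC and 0.0746 under BMN).

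The remaining changes with time were smaller or less firm. AFF2 was higher at day 26 than at day 5 of the combination in KO cells by 0.88 ± 0.16 (adjusted p = 2.9e-05). MARK1 in KO cells had a log2 change of -0.72 ± 0.24 under the combination (adjusted p = 0.015) and -0.87 ± 0.24 under DAC (adjusted p = 0.0045). The first was lost without replicate 2 at day 26 (adjusted p = 0.105) or replicate 2 at day 5 (adjusted p = 0.194), and the second without replicate 2 at day 26 (adjusted p = 0.0646). In WT cells under the combination SLC7A2 was higher by 1.64 ± 0.50 (adjusted p = 0.01) and VPS9D1-AS1 had a change of -1.35 ± 0.53 (adjusted p = 0.045). The SLC7A2 call was lost without replicate 2 at day 26 (adjusted p = 0.0864) or at day 5 (adjusted p = 0.144). The VPS9D1-AS1 call did not survive leaving out replicate 1 or 2 at day 26 or at day 5, or a fit of those 4 libraries alone, with adjusted p values of 0.0595 to 0.237.

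In all, the combination gave 2 members higher and 3 lower at day 26 in KO cells, beside 21.6% and 21.1% of all genes tested. In WT cells it gave 2 higher and 2 lower, beside 18% and 17.9%. DAC gave 1 higher and 3 lower in KO cells, beside 18.1% and 17.8%, and 1 higher and 1 lower in WT cells, beside 12.6% and 9.14%. BMN gave 1 higher and 2 lower in KO cells, beside 8.95% and 9.38%, and 0 higher and 1 lower in WT cells, beside 11.7% and 10.3%. The WT counts became 1 higher and 1 lower for the combination without replicate 2 at day 5 or at day 26, 1 higher and 0 lower for DAC without replicate 1 at day 5, and 0 for BMN without any 1 of its 4 libraries.

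The 6 genes belong to a wider set of 27 genes that were at least 8-fold higher in untreated KO than in untreated WT cells with a mean of at least 5 CPM in KO, in which they ranked 2, 4, 7, 8, 9 and 10 by log2 difference. The set was chosen on the untreated libraries, so its counts past an adjusted p of 0.05 are a description and support nothing. In WT cells 24 of the 27 were higher under DAC than under BMN and 1 was lower, beside 23.3% and 19.4% of all genes tested, with a median log2 value of 2.04 beside -0.01. In KO cells 16 were higher and 6 lower, beside 28.5% and 23%, with a median of 0.61 beside 0.03. For DAC against BMN, 21 of the 27 had a lower response in KO than in WT cells and 0 a higher one. The median KO minus WT value was -1.20 beside 0.02, and 10.8% of all genes tested were lower. For the combination against BMN 20 were lower and 0 higher, with a median of -1.85 beside 0.04, and 8.91% of all genes tested were lower. The highest treated WT group reached the untreated KO mean for 10 of the 27, among the members for EPPK1 alone.

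The members were chosen on their day 0 difference, so it follows largely from the choice that no gene beside them had one as large. Whether the gain in KO cells extends along the chromosome was not tested. Of 16 nearest or overlapping genes, 5 were higher and 3 lower in KO than in WT cells at day 0, beside 13.4% and 13.9% of all genes tested. Without untreated KO replicate 1, 3 were higher and 2 lower, and a fit of the 4 untreated libraries alone called 2 higher and 2 lower. Beside SLC7A2, VPS37A (an endosomal sorting gene) had 11.3 CPM in KO and 22.5 CPM in WT cells, a log2 difference of -0.995 ± 0.12 (adjusted p = 8.4e-08). Beside AFF2, IDS (a lysosomal sulfatase) had 22.3 CPM in KO and 10.8 CPM in WT cells, a difference of 1.04 ± 0.15 (adjusted p = 1.5e-06). Beside EPPK1, PLEC, which encodes the related linker plectin, was higher in KO cells by 0.82 ± 0.11 (adjusted p = 2.4e-07). CPB2-AS1, which overlaps LCP1 on the other strand, had 0.517 CPM in KO and 0.0763 CPM in WT cells, a difference of 2.66 ± 0.82 (adjusted p = 0.013). That call rests on 12 and 7 counts in KO libraries and 2 and 1 in WT libraries, with the WT mean below the counting floor. Whether LCP1 reads counted on the wrong strand had a part in it was not tested. LRRC63, which starts 69 bases beyond the end of the LCP1 span, was at 0 in all 4 untreated libraries. In treated KO cells it had 0.369 CPM under DAC and 0.0083 CPM under BMN (log2 5.06 ± 0.79, adjusted p = 3.3e-06). The combination, at 0.298 CPM, was higher than BMN by 4.72 ± 0.83 (adjusted p = 2.4e-05). In WT cells DAC against BMN did not pass (log2 -0.51 ± 0.70, adjusted p = 0.61), and the combination was higher than BMN by 1.37 ± 0.55 (adjusted p = 0.037).

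VPS9D1, which overlaps VPS9D1-AS1 on the other strand, went the other way at day 0, with 15.2 CPM in KO and 22.7 CPM in WT cells (log2 -0.57 ± 0.14, adjusted p = 0.0014). Under DAC it was higher than under BMN in KO cells by 0.60 ± 0.09 (adjusted p = 3.1e-07), the opposite direction to its antisense partner. In WT cells VPS9D1 did not pass (log2 0.04 ± 0.08, adjusted p = 0.73). Under the combination in KO cells it was higher than under BMN by 0.40 ± 0.09 (adjusted p = 0.00023), while VPS9D1-AS1 did not pass. Of the 16 neighbours 9 were higher and 3 lower under DAC than under BMN in KO cells, beside 28.5% and 23% of all genes tested. Counting was by strand per the file header. MTARC2 beside MARK1 was lower in KO cells (log2 -0.67 ± 0.21, adjusted p = 0.017). NRBP2 beside EPPK1 and ZNF276 beside VPS9D1-AS1 were higher in KO cells by 0.26 ± 0.09 (adjusted p = 0.024) and 0.32 ± 0.10 (adjusted p = 0.01). The other 8 neighbours did not pass.

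**Figure D4:**
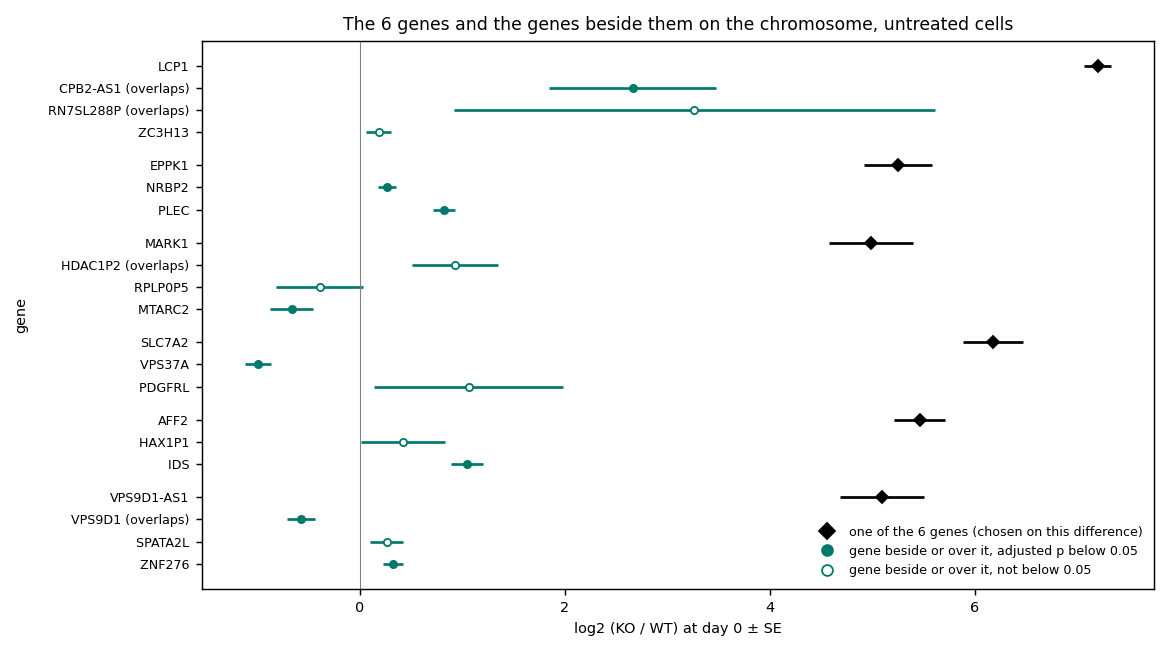
Log2 difference between untreated KO and WT cells at day 0 (± SE) for the 6 genes and for their nearest or overlapping tested genes, grouped by member. The members, which were chosen on this difference, lie between 4.98 and 7.20. Of the neighbours that passed the highest is CPB2-AS1 at 2.66. Its value rests on 12 and 7 counts in KO libraries and 2 and 1 in WT libraries. LRRC63 is not drawn because it was at 0.

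The families of the members showed no common direction at day 0, when 13.4% of all genes tested were higher and 13.9% lower in KO cells. Among 11 actin-bundling genes 4 were higher and 1 lower in KO cells. The other plastins differed little, PLS3 by 0.21 ± 0.07 (adjusted p = 0.027) and PLS1 by -0.55 ± 0.13 (adjusted p = 0.001), while the crosslinker FLNA had 9127 CPM in KO and 3226 CPM in WT cells (adjusted p = 1.5e-16). Among 15 arginine transport and metabolism genes 8 were higher and 2 lower. The carrier gene SLC7A1 was higher by 0.66 ± 0.06 and ASS1, which makes argininosuccinate, by 2.04 ± 0.20, while the carrier gene SLC7A7 had a value of -0.82 ± 0.13. Of 12 genes of the AFF family and its partners 1 was higher and 3 lower, with AFF1 at -0.36 ± 0.06 and AFF4 at -0.34 ± 0.07. Of 15 MARK and polarity genes 2 were higher and 4 lower. MARK2, MARK3 and MARK4 stood at -0.04, -0.01 and 0.03 and did not pass, and PRKCZ, an atypical protein kinase C that phosphorylates MARK proteins, had 0.0545 CPM in KO and 4.87 CPM in WT cells (log2 -6.32 ± 0.57). Of 18 plakin, keratin and desmosome genes 3 were higher and 5 lower, with desmoplakin (DSP) having 4.62 CPM in KO cells, against 0.310 CPM in WT cells (log2 3.89 ± 0.38). Of 8 other VPS9 domain genes 3 were higher and 2 lower.

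Between DAC and BMN the relatives and partners of EPPK1 were mostly higher under DAC. Of all genes tested, 28.5% were higher and 23% lower under DAC in KO cells, and 23.3% higher and 19.4% lower in WT cells. Of the 18 plakin, keratin and desmosome genes 13 were higher and 1 lower under DAC in KO cells, with a median log2 value of 1.13 beside 0.03 over all genes tested, and 12 were higher and 3 lower in WT cells, with a median of 0.94 beside -0.01. KRT19, a keratin of simple epithelia, had 122 CPM under DAC and 12.7 CPM under BMN in KO cells (log2 3.29 ± 0.08). In WT cells it had 99.0 CPM under DAC and 16.5 CPM under BMN (log2 2.67 ± 0.07). JUP, the junction protein plakoglobin, had 10.8 CPM under DAC and 1.74 CPM under BMN in KO cells (log2 2.63 ± 0.15). The arginine list gave 6 higher and 5 lower in KO cells and 6 higher and 4 lower in WT cells. ASS1 was higher under DAC by 1.55 ± 0.08 in KO and by 4.17 ± 0.11 in WT cells, and the nitric oxide synthase gene NOS3 by 4.53 ± 0.32 and 3.06 ± 0.23. The actin list gave 2 higher and 4 lower in KO cells and 1 higher and 3 lower in WT cells. The AFF list gave 3 higher and 4 lower in KO cells and 3 higher and 6 lower in WT cells. The MARK list gave 2 higher and 5 lower in KO cells and 3 higher and 5 lower in WT cells, and the VPS9 list 3 higher and 3 lower in KO cells and 2 higher and 1 lower in WT cells.

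Across the 20 groups, after each line's own mean was taken out, the members followed one another unevenly. Pearson's r of log2 CPM was 0.74 between LCP1 and EPPK1, -0.86 between EPPK1 and AFF2, -0.59 between LCP1 and AFF2 and -0.57 between SLC7A2 and MARK1, and all other pairs lay between -0.37 and 0.38. Values of 1 group share their libraries and depth, groups of 1 drug are related, and no p is given. Among 14849 genes with at least 1 CPM on average, the patterns most like LCP1 were those of PDCD1LG2 and CD274, which encode ligands of the checkpoint receptor PD-1, and VEGFC, at 0.95 each. SLC7A2 was closest to VIM at 0.89, COPZ2 at 0.87 and APOL1 at 0.86. AFF2 was closest to C12orf29 at 0.95, TMEFF2 at 0.93 and METTL2B at 0.92, and EPPK1 to MXRA8, MEST and GAS6-AS1 at 0.97. The most similar patterns for VPS9D1-AS1 (CRACR2B at 0.76, MAB21L3 at 0.73, TFCP2 at 0.71) and MARK1 (ATP11B, TMEM117 and MTDH at 0.73) were less close. For VPS9D1-AS1 the r of TFCP2 was -0.02 over the KO groups and 0.84 over the WT groups. That of MAB21L3 was 0.50 and 0.80, and that of CRACR2B 0.75 and 0.77, and the WT values rest on 0 to 15 counts a library. For MARK1 the r of ATP11B was 0.88 over the KO groups and 0.65 over the WT groups, that of TMEM117 0.72 and 0.81, and that of MTDH 0.79 and 0.61. WT libraries held 0 to 7 counts of MARK1, 3 to 15 of AFF2 and 0 to 32 of SLC7A2, which limits their r values too.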

How the data were processed

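Total RNA of 40 libraries (20 groups of 2) was sequenced after KAPA RNA HyperPrep library preparation, per the labels' protocols. The authors deposited raw counts of fragments per gene, made with featureCounts 1.5.0-p1 on the Ensembl 104 annotation of GRCh38, by strand (setting 1), per the file headers. Only primary alignments with a mapping quality of 20 or more were used, and those flagged as duplicates were passed over. Of the 76 alignments that the header lists, 40 have a column here. FastQC, Trimmomatic and Partek are named by the submitters' processing notes, and the order of the steps is not given in the sources used here. Dropping duplicates without molecular tags can understate the most abundant genes.

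Low counts were removed with filterByExpr of edgeR 4.0.16 in R 4.3.3, at a minimum count of 10 and a minimum total of 15, which kept 22527 of 60664 genes. Counts were scaled by TMM, and one quasi-likelihood model held all 40 libraries with 20 group means. P-values were adjusted by Benjamini-Hochberg over all genes tested in a contrast, and a gene passed below 0.05. Averages over days are means of the 3 daily log2 differences, and CPM beside them are means of the 3 day means. Values after ± are SE for log2 differences and SD for levels. Alternatives were DESeq2 size factors, DESeq2 1.42.0, no filter, the compared libraries alone, a replicate block, and each library left out in turn with the genes, scaling and dispersion trend of all 40 libraries kept.

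The 6 genes, the gene lists and the tests were chosen with earlier results of these data known. Besides the 6 genes, the text names SETD2, the nearest tested gene on each side of a member and any that overlaps it, family members and up to 4 others per list by size of difference, and the 3 genes whose group pattern is most like each member. No pair of libraries of a group agreed within counting noise. The model was also tested on simulated data, made with known fold changes. The value of a listed blood cell marker is not reported here.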

Additional observations from a re-analysis of the deposited data

Results flagged for a closer look

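For 3 of the 6 genes the response to DAC or the combination, each against BMN and averaged over days, was lower in KO than in WT cells. This was by a test of the difference itself (edgeR's quasi-likelihood test). Of all genes tested, 10.8% had a lower value in KO cells for DAC and 8.91% for the combination. The KO minus WT log2 value of LCP1 was -2.10 for the combination and -1.16 for DAC. That of EPPK1 was -1.76 for the combination and -1.20 for DAC. That of VPS9D1-AS1 was -1.20 for DAC, a call that 6 of the libraries left out in turn ended. The BMN libraries are shared by both comparisons. A lower response in KO cells was not particular to these members. The wider set of 27 genes gained in KO cells includes the 6 members and was chosen on the same untreated libraries, so its counts are a description and support nothing. Of the 27, 21 had a lower value for DAC and 20 for the combination, and 0 a higher one.

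For 2 genes the day 26 libraries all lay on one side of the day 5 libraries in KO cells and on the other side in WT cells. The share of all genes tested that did so was not counted, so the number 2 is a description only. LCP1 had a KO minus WT log2 value of -1.20 under the combination and -1.82 under DAC, being lower at day 26 in KO cells and higher in WT cells. SLC7A2 under BMN had a value of 3.62, being higher at day 26 in KO cells and lower in WT cells. The WT level rests on 2 and 0 counts at day 26. The WT change of SLC7A2, at -2.33 with an interval from -4.37 to -0.28, did not pass after adjustment over all genes tested. These differences between the lines were not tested.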

How the results depend on the processing

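Of the counts of members that passed, most stayed within 1.5 times their value under every alternative. Exceptions follow. In a fit of the compared libraries alone, the count for day 26 against day 5 was 1 in place of 2 for DAC in WT cells, 0 in place of 1 for BMN in WT cells and 6 in place of 3 for BMN in KO cells, and the neighbours that passed at day 0 were 4 in place of 8. Leaving out each library in turn gave 2 to 5 for DAC against BMN in WT cells (2 without replicate 1 of DAC at day 26), 1 to 2 for day 26 against day 5 of DAC in WT cells (1 without replicate 1 at day 5), 2 to 3 in place of 4 for day 26 against day 5 of the combination in WT cells (2 without replicate 2 at day 26 or at day 5), and 5 to 6 neighbours at day 0 (5 without untreated KO replicate 1). For BMN in WT cells it gave 0 whichever of the 4 libraries was left out. By edgeR 3 of the 6 members were past an unadjusted p of 0.05 there with all libraries in the fit, and DESeq2 on all libraries called 1. Genes called between the lines at day 0 over the whole table numbered 3181 in a fit of the 4 untreated libraries, against 6136 in the fit of all libraries, which estimates the spread from more libraries.

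Among listed genes that did not pass at day 0, MACF1 and DST changed sign with single untreated libraries. MACF1 ran from -0.211 without KO replicate 1 (adjusted p = 0.0447) to 0.195 without KO replicate 2 (adjusted p = 0.0599), and DST from -0.2675 without WT replicate 2 (adjusted p = 0.0118) to 0.249 without WT replicate 1 (adjusted p = 0.0259). The cause was not tested. With the replicate number as a block the counts were unchanged, for example 6 members for DAC against BMN in KO cells and 4 in WT cells. The numbers were not taken to pair the samples, which would need every correlation of the deviations of same-numbered libraries to be over 0.1. Over 190 pairs of groups 10 were, and they ran from -0.174 to 0.237 with a median near 0. For 10 of the 20 groups the closest other group deviated in the same direction by number. A term for an ending in the alignment names, added after seeing the data, changed none of these counts either. Depth limits AFF2, MARK1, VPS9D1-AS1 and SLC7A2 in WT cells, where libraries held at most 32 counts of each.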
